A study of Mus musculus with 8 samples.

Results

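Hepatokines are hormones and carrier proteins that the liver secretes and that act on other organs. The 10 hepatokine genes described here are Fgf21, Gdf15, Fgl1, Ahsg, Fetub, Tsku, Inhbe, Smoc1, Enho and Selenop. They were taken by gene symbol from the 19642 genes of the liver count table. The list was chosen by known secretion from liver and, for Fgf21, by its lower level in these same N-LKO livers. For that reason the difference between genotypes in the 10 genes is given as values with errors and without p-values, and the number of them called is printed for completeness only. RNA was measured by RNA-seq in 4 WT and 4 N-LKO livers, all from mice fed CD, a normal chow diet. N-LKO mice lack NgBR, the protein encoded by Nus1, in the liver through loxP-flanked alleles and Cre driven by the albumin promoter, which is active in hepatocytes, so that the other cells of the liver keep the gene. All mice were in the C57BL6 background, and the sample titles give 8 weeks on CD whereas the treatment entries give 16 weeks. The age of the mice is not given in the labels.

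FGF21 and GDF15 are the classical stress hormones of this group. FGF21 is induced by fasting through the fatty acid receptor PPARα and by amino acid shortage or endoplasmic reticulum (ER) stress through the transcription factor ATF4, and it signals through an FGF receptor joined to β-Klotho. GDF15, a distant member of the TGF-β family, is induced by many kinds of cell stress and lowers food intake through a receptor in the hindbrain. NgBR is a subunit of the enzyme that makes dolichol, the lipid carrier for protein N-glycosylation, and several hepatokines, the fetuins among them, are N-glycosylated on their way out of the cell. The values below are RNA levels. Protein, glycosylation and plasma levels were not analysed here.

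The libraries held 14688380 to 18585376 counts. Nus1 ranged from 82.0 to 90.5 CPM (counts scaled to a common library size) in WT and from 33.3 to 38.7 CPM in N-LKO. The difference on the log2 scale (log2 fold change, N-LKO minus WT) was -1.26 (SE 0.0748, edgeR adjusted p = 3.06e-05). Summed hepatocyte markers were at 86038 to 109848 CPM in WT and 87690 to 104667 CPM in N-LKO livers, so all 8 libraries carried the RNA of hepatocytes. Summed cholangiocyte markers ranged from 23.6 to 46.5 CPM in WT and from 53.4 to 137 CPM in N-LKO livers (2 of 5 tested markers called, Epcam and Spp1), and summed fibroblast markers from 150 to 205 CPM and from 225 to 311 CPM (2 of 8 called, Lum and Col1a1). With 1 mouse left out, Lum was called in all 8 fits, but Epcam and Spp1 were each called in 2 of 8 and Col1a1 in 1 of 8, and limma-voom called none of these 3 (adjusted p = 0.0621, 0.052 and 0.0749). Of 8 stellate cell markers 2 were called lower, Colec10 (log2 fold change -1.31, SE 0.129, adjusted p = 0.000876) and Ecm1 (-0.83, SE 0.134, adjusted p = 0.0164, lost without WT replicate 4 at 0.0522 and without N-LKO replicate 3 at 0.0514), and the summed markers averaged 214 CPM in WT and 163 CPM in N-LKO livers. Of these 8 markers 6 had log2 fold changes below 0. The 2 above it were Des (0.63, SE 0.264, adjusted p = 0.352) and Reln (0.09, SE 0.178, adjusted p = 0.892). Of 4 tested lipid-associated macrophage markers 2 were called higher, Gpnmb (0.309 ± 0.178 and 3.60 ± 1.17 CPM, adjusted p = 0.00162) and Mmp12 (0.278 ± 0.119 and 3.14 ± 0.376 CPM, adjusted p = 0.00032). In WT livers they reached no more than 0.481 and 0.386 CPM. Both passed the filter on low counts only through the N-LKO libraries. Neither was tested under the stricter filter of 10 counts in every mouse. Cd9, from the same markers, had a log2 fold change of -0.01. None of the 8 Kupffer cell or 7 sinusoidal endothelial markers was called by edgeR, limma-voom or DESeq2, with 1 and 0 at an unadjusted p under 0.05. Over all tested genes edgeR called 1.04%. The markers were chosen with earlier results of these data known, so their calls are not independent evidence on cell types. In whole liver, fewer cells of a type and less RNA per cell cannot be told apart.

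WT replicate 1 stood apart from the other WT mice in the acute phase genes, the plasma protein genes that hepatocytes raise in inflammation. Its summed CPM over 16 acute phase genes, a list chosen after the values had been seen, was 33210, against 15478 to 16487 in the other WT livers and 15051 to 24532 in the N-LKO livers. Fga, the fibrinogen α chain, was at 9176 CPM in this mouse and at 3751 to 4314 CPM in the other 3 WT mice. Lcn2, an iron-scavenging acute phase protein, was at 37.1 CPM in this mouse and at 2.92 to 5.75 CPM in the other 3 WT mice, but at 24.9, 16.6, 7.50 and 18.5 CPM in the N-LKO mice. Without WT replicate 1, Lcn2 was called higher in N-LKO livers (log2 fold change 2.06, adjusted p = 0.0385), against 0.44 (adjusted p = 0.854) with all mice. No other gene of this list was called without that mouse, the next lowest adjusted p being 0.0751 for Apcs. As the mouse was set apart by its high values in this list, Lcn2 among them, leaving it out lowers the WT mean. The adjusted p values without it are therefore no test of a difference in these genes. Because this mouse stood apart, the hepatokine log2 fold changes that rest on it are given with and without it.

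**Figure D1:**
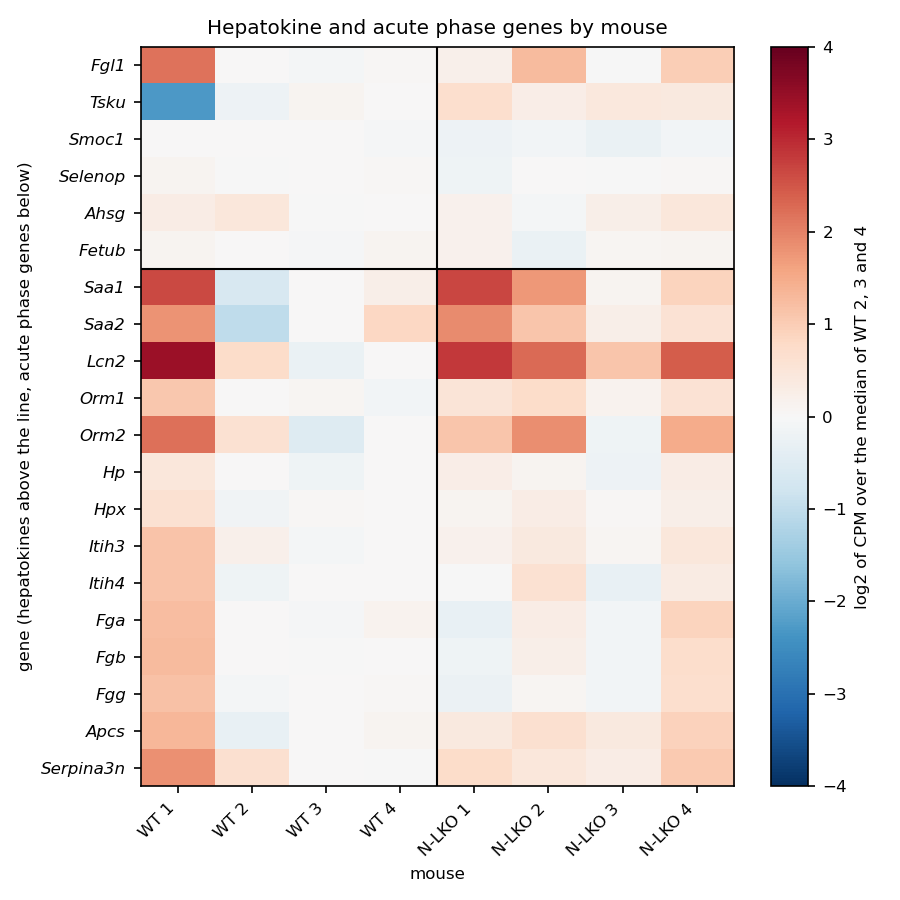
Each cell shows the log2 of a gene's CPM over its median in WT replicates 2, 3 and 4, for 8 mice in columns, with 6 hepatokine genes above the horizontal line and acute phase genes below it, and the vertical line parts WT from N-LKO mice. In WT replicate 1, Fgl1 and the drawn acute phase genes are high and Tsku is low, while Smoc1 and Selenop differ little from mouse to mouse. Of the 16 listed acute phase genes, Saa3 and Cp are not drawn. Saa3 was at 2.46 CPM in WT replicate 1, within the 1.75 to 3.37 CPM of the other WT mice. Cp was at 1552 CPM, against 1204 to 1356 CPM.

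Upstream DNA is shown for Fgf21 because this promoter held the composite element that ATF4 shares with C/EBP factors, an E-box and a TATA box together. RefSeq promoters (250 bases before to 50 after the start, GRCm38.p6) were matched for 7 of the 10 genes, 12 promoters in all. The 250 bases before the start (chr7:45615491-45615740, minus strand) are written 5′ to 3′ on the gene's own strand. Capitals mark TTGCATCA at -139 to -132, the E-box CACGTG at -50 to -45 and the TATA box TATAAA at -28 to -23, counted from the start.
Fgf21: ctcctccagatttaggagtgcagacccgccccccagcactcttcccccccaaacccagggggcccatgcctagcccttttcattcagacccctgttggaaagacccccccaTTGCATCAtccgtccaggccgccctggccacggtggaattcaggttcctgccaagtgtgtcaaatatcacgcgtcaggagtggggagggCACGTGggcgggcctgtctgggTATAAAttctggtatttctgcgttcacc

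TTGCATCA is the reverse complement of the searched pattern TGATGNAA, and all patterns were read on both strands. The pattern was in 2 of the 12 hepatokine promoters, those of Fgf21 and Inhbe, and in 3.97% of 32851 RefSeq promoters of the same length. In Inhbe it lay at -181 to -174 of the RefSeq start, and the 250 bases before that start (chr10:127351849-127352098, minus strand) fall inside the gene as GENCODE draws it. The E-box CACGTG was in 2 of the 12 (Fgf21 and 1 of 2 Gdf15 promoters) and in 7.15% of all promoters, and TATAAA in 3 of the 12 and in 13.6% of all. The C/EBP pattern TTGCNNAA was in the Ahsg promoter at -32 to -25 and in 10.8% of all promoters. The D-box TTATGNAA, which NFIL3 and the PAR-domain clock factors read, was in 1 Fetub promoter and in 3.38% of all. There it lay after the start, at 33 to 40. As in Inhbe, the upstream bases of the Ahsg and Selenop promoters fall inside the genes as GENCODE draws them. So do those of the Gdf15 promoter with the E-box and the Fetub promoter with the D-box. A perfect DR1 element (the form read by PPARα with RXR), the STAT pattern TTCCNGGAA, the HNF1 palindrome and the ER stress element were in none of the 12 and in 0.0396%, 1.15%, 0.00913% and 0.119% of all promoters. These are matches of letters, not measured binding.

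Among the hepatokines, levels per kilobase of exon ran over a wide range in WT liver. Ahsg, encoding the plasma glycoprotein fetuin-A, and Selenop, encoding the selenium carrier of plasma, were at 2773 ± 450 and 2656 ± 111 CPM per kb (SD, n = 4). Their ranges over the WT mice overlapped. Fetub, encoding fetuin-B, was at 165 ± 9.94 CPM per kb and Fgl1, encoding fibrinogen-like protein 1, at 133 ± 124 CPM per kb. Smoc1 (18.7 ± 0.444 CPM per kb) and Inhbe (17.6 ± 6.63 CPM per kb) came next and also overlapped. Tsku (5.89 ± 2.98 CPM per kb), Fgf21 (5.0 ± 0.493 CPM per kb) and Enho (3.30 ± 1.16 CPM per kb) overlapped as neighbours in this order. Gdf15 was lowest, at 0.234 ± 0.0601 CPM per kb. The gaps that no pair of WT mice bridged lay between Selenop and Fetub (16.1 times), Fgl1 and Smoc1 (7.11 times), Inhbe and Tsku (2.99 times) and Enho and Gdf15 (14.1 times). Over the WT mice Fgl1 spanned 67.9 to 319 CPM per kb and Tsku 1.52 to 8.07. WT replicate 1 held the highest Fgl1 and the lowest Tsku value. The overlaps of Fgl1 with Fetub and of Tsku with Fgf21 rested on this mouse. The means and ratios of Fgl1 and Tsku include it, and levels without it were not computed. In N-LKO livers the order was the same, except that Enho (3.92 ± 1.32 CPM per kb) stood above Fgf21 (2.61 ± 0.429 CPM per kb). Ahsg took 0.514% to 0.718% of all counts in a liver and Selenop 0.615% to 0.812%.

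**Figure D2:**
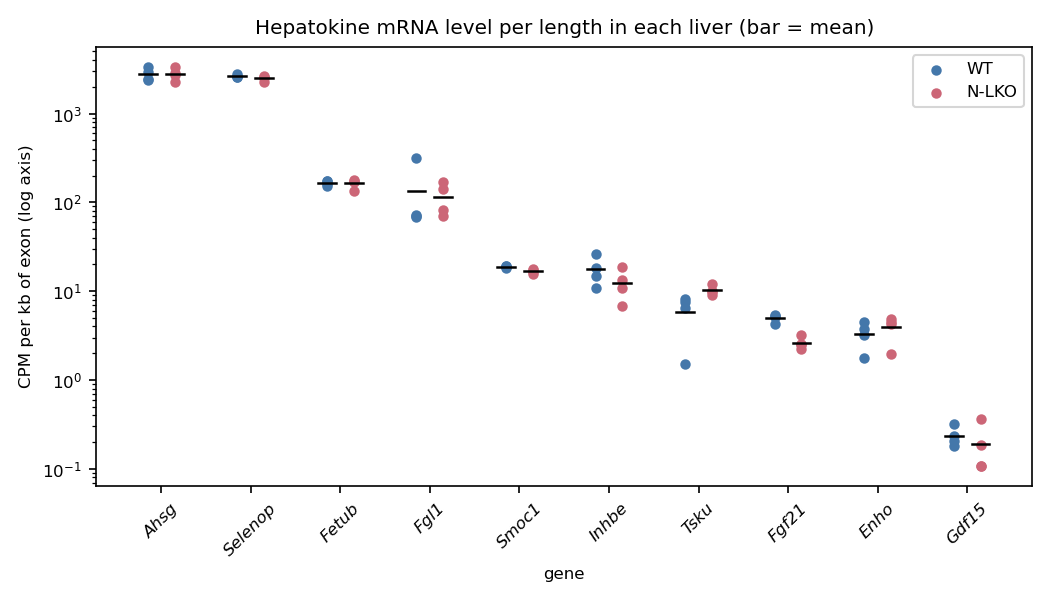
Points give each mouse's CPM per kilobase of exon on a log axis, in WT and N-LKO livers, for the 10 hepatokine genes in their WT order, and bars give group means. Ahsg and Selenop stand far above the rest, Gdf15 far below, and Fgf21 is the gene whose N-LKO mean falls below that of its neighbour Enho.

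Fgf21 (ENSMUSG00000030827, chr7:45613886-45615490, GRCm38, minus strand) was at 5.02, 4.06, 5.07 and 4.86 CPM in the WT mice and at 3.06, 2.38, 2.39 and 2.10 CPM in the N-LKO mice, replicates 1 to 4 in order. Every N-LKO liver lay below every WT liver. The group means were 4.75 ± 0.469 and 2.48 ± 0.408 CPM (SD, n = 4), so that N-LKO livers held 52.2% of the WT level, a log2 fold change of -0.93 (SE 0.162). These values rest on few reads: 94, 65, 80 and 88 counts in the WT libraries and 54, 36, 36 and 31 in the N-LKO libraries. Summed over mice, 327 counts gave 4.76 CPM in WT (95% exact Poisson interval 4.26 to 5.31) and 157 counts gave 2.51 CPM in N-LKO livers (2.13 to 2.93), an interval for counting error only. Without WT replicate 1 the log2 fold change was -0.90, and over the fits that left out 1 mouse each it ranged from -1.05 to -0.86.

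Gdf15 (ENSMUSG00000038508, chr8:70629393-70632456, minus strand) was barely detected. It had 11, 7, 6 and 6 counts in the WT libraries and 12, 3, 3 and 5 counts in the N-LKO libraries, and it did not pass the filter on low counts. These are 0.588, 0.438, 0.380 and 0.331 CPM in WT and 0.680, 0.198, 0.199 and 0.339 CPM in N-LKO livers. The highest and the lowest values were both in N-LKO mice, and the groups overlapped. The pooled levels were 0.437 CPM (0.295 to 0.623) in WT and 0.367 CPM (0.233 to 0.551) in N-LKO livers, so no difference was detectable at this depth. The log2 ratio of the group means was -0.29, and -0.82 without N-LKO replicate 1.

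Inhbe (chr10:127348857-127354411, minus strand) encodes the subunit of activin E, a ligand of the TGF-β family that hepatocytes make and that acts on fat tissue. It was at 79.5, 57.7, 141 and 97.2 CPM in WT and at 57.6, 71.6, 99.9 and 36.6 CPM in N-LKO livers. The groups overlapped, with 2 N-LKO mice below the lowest WT mouse. Means were 93.8 ± 35.3 and 66.4 ± 26.6 CPM, a log2 fold change of -0.50 (SE 0.305). A gene on the other strand, Gm47200, overlaps Inhbe, and the strand setting of the counting is not given in the sources used here.

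Tsku and Smoc1, which encode matrix-associated secreted proteins, lay in opposite directions. Tsku (chr7:98350668-98361328, minus strand) encodes tsukushi, a leucine-rich repeat protein linked to cholesterol handling and energy balance. It was at 4.65, 19.8, 24.6 and 22.8 CPM in WT and at 36.4, 27.5, 30.7 and 29.7 CPM in N-LKO livers. All N-LKO mice lay above all WT mice, and WT replicate 1 lay far below the other WT mice. Means were 18.0 ± 9.10 and 31.1 ± 3.80 CPM, with a log2 fold change of 0.80 (SE 0.364) over all mice and 0.47 without WT replicate 1.

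Smoc1 (chr12:81026808-81186414, plus strand), a glucose-lowering hepatokine related to the SPARC family, was at 66.3, 66.5, 65.9 and 63.2 CPM in WT and at 57.0, 60.6, 54.8 and 61.5 CPM in N-LKO livers. The groups did not overlap, although the difference was small: N-LKO livers held 89.3% of the WT level, a log2 fold change of -0.16 (SE 0.0657). The SD of Smoc1 within a genotype was 0.06 on the log2 CPM scale, at percentile 1.93 of all tested genes, so this gene was among the steadiest in the liver. The microRNA gene Mir3067 lies within it on the same strand.

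Fgl1 (chr8:41191434-41215156, minus strand), a mitogen of hepatocytes and a ligand of the inhibitory receptor LAG3, was at 1416, 315, 301 and 322 CPM in WT and at 364, 759, 311 and 622 CPM in N-LKO livers. A single WT mouse, replicate 1, was the highest of all 8, and the other 3 WT mice were close together. Over all mice the log2 fold change was -0.20 (SE 0.504). Without WT replicate 1 it turned to 0.72. The summed fibrinogen and angiopoietin-like relatives of Fgl1 were at 22300 CPM in that mouse and at 9289 to 10066 CPM in the other WT mice. Nearly all of that sum came from Fga, Fgb and Fgg (9176, 7489 and 5611 CPM in that mouse), which are also among the acute phase genes above. Angptl2 did not stand out, at 4.86 CPM against 3.75 to 6.66 CPM in the other WT mice. The part of the acute phase genes in the Fgl1 values was not tested.

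The abundant carriers showed no gap between genotypes. Ahsg (chr16:22891277-22899449, plus strand) ranged from 5230 to 7296 CPM in WT and from 5033 to 7354 CPM in N-LKO livers, a log2 fold change of 0.02 (SE 0.153). Fetub (chr16:22918334-22939778, plus strand), its neighbour on the chromosome and an inhibitor of the egg protease ovastacin, ranged from 302 to 342 CPM and from 262 to 354 CPM, a log2 fold change of -0.01 (SE 0.101). Selenop (chr15:3268547-3280508, plus strand) ranged from 7286 to 7987 CPM and from 6480 to 7525 CPM, a log2 fold change of -0.08 (SE 0.106). Enho (chr4:41638144-41640324, minus strand), which encodes the peptide adropin, was at 5.72, 4.75, 2.22 and 4.08 CPM in WT and at 5.44, 2.51, 6.24 and 5.70 CPM in N-LKO livers, a log2 fold change of 0.24 (SE 0.309). Ahsg, Enho and Selenop overlap genes on the other strand (Gm30505, Dnaic1 and Gm12406, and Ccdc152), so their counts carry that uncertainty.

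**Figure D3:**
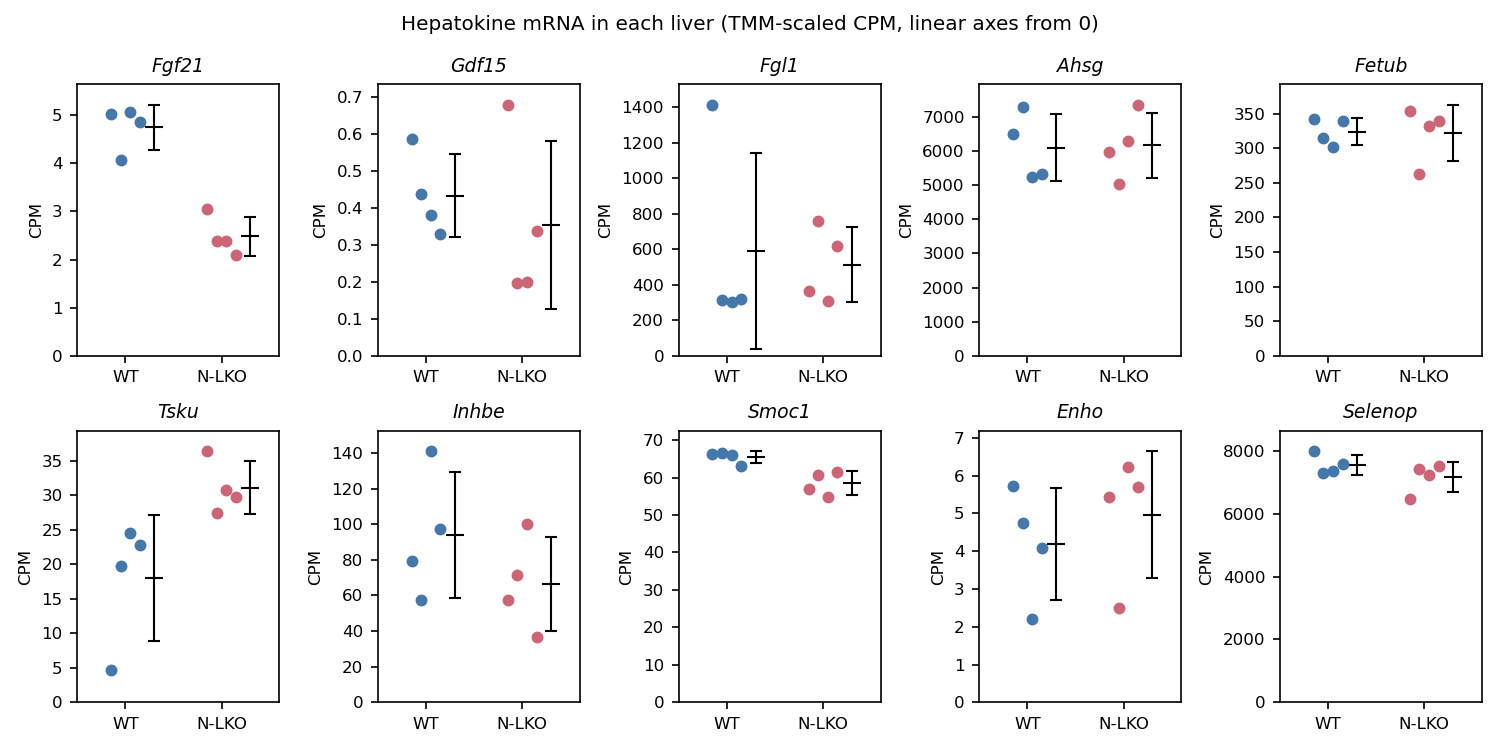
Each panel shows TMM-scaled CPM of 1 hepatokine gene on a linear axis from 0, with 1 point per mouse in replicate order from left to right and the group mean ± SD (n = 4) beside the points. WT and N-LKO mice do not overlap for Fgf21, Tsku and Smoc1, and WT replicate 1 lies apart for Fgl1 and Tsku.

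In all, WT and N-LKO livers did not overlap for 3 of the 10 genes, Fgf21 and Smoc1 (lower) and Tsku (higher), where 7.52% of the 14214 tested genes had groups that did not overlap (3.32% lower and 4.2% higher in N-LKO livers). Of the 9 hepatokines that entered the fit, edgeR called 1, Fgf21, at an adjusted p under 0.05, where 1.04% of tested genes were called, 0.218% lower and 0.823% higher. As Fgf21 was chosen for this difference, nothing is read from either count. The count of called hepatokines was 1 without WT replicate 2 and without N-LKO replicate 1, and 0 in the other 6 fits that left out 1 mouse. Spread between mice, pooled over genotypes, also differed by gene: Fgl1 and Tsku had SDs of 0.88 and 0.80 on the log2 CPM scale (percentiles 98.8 and 98.3 of tested genes), Inhbe and Enho 0.57 and 0.58, Fgf21 0.18 and Selenop 0.08. For Tsku the SD was 1.12 in WT and 0.17 in N-LKO mice, and for Fgl1 1.09 and 0.61. In both genes WT replicate 1 lay apart, and SDs without it were not computed.

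**Figure D4:**
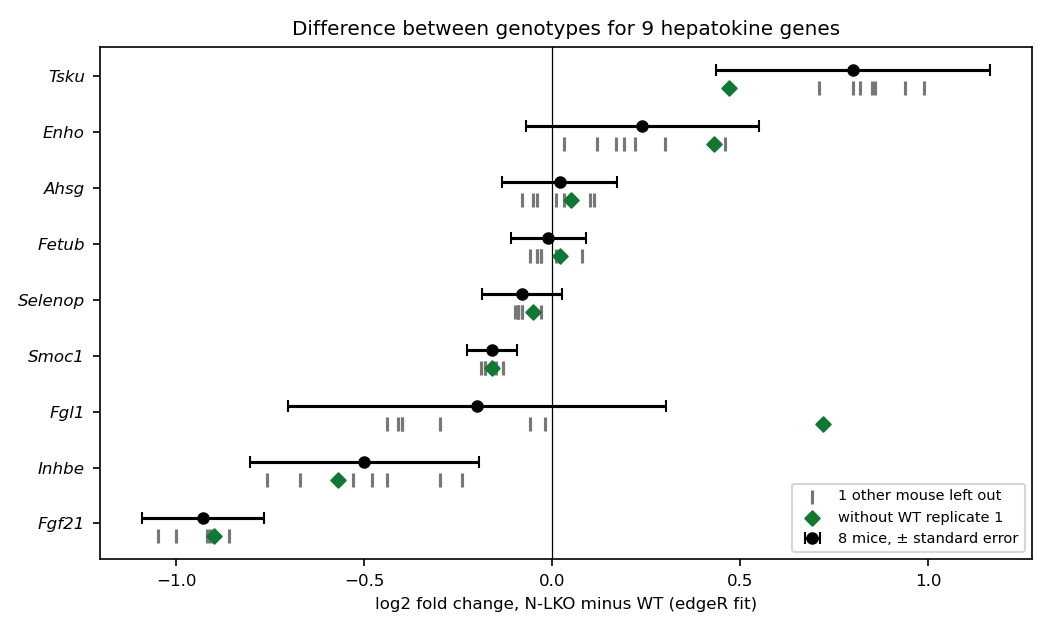
Black points give the log2 fold change (N-LKO minus WT) ± standard error of the 9 hepatokines that passed the filter, ordered by size, with grey ticks for the fits that left out 1 other mouse and green diamonds for the fit without WT replicate 1. Fgf21 ranges from -1.05 to -0.86 with 1 mouse left out, and Fgl1 moves from -0.20 to 0.72 without WT replicate 1.

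With the genotype means removed, the hepatokines did not vary from mouse to mouse as 1 group. Over the 8 mice, residual Pearson's r was -0.91 between Fgl1 and Tsku, but -0.58 without WT replicate 1. It was 0.84 between Fetub and Enho (0.83 without that mouse), 0.77 between Ahsg and Enho, -0.73 between Ahsg and Inhbe and 0.44 between Fgf21 and Inhbe. Fgf21 and Tsku were at -0.05 with and 0.87 without WT replicate 1. The genes whose residuals were most like those of Fgf21, among the 13167 genes whose mean reached 1 CPM, were Zfp2, Rps4l, Slc22a15 (each r = 0.98), Kcmf1 and Mup13 (each 0.97). Of these, Mup13, a major urinary protein gene whose near-identical copies can share reads, was higher in N-LKO livers (log2 fold change 1.85, SE 0.369, adjusted p = 0.0429). That call was lost with limma-voom (0.0911), under the stricter filter of 10 counts per library (0.0528) and in 5 of the 8 fits that left out 1 mouse (without each WT mouse or N-LKO replicate 3, adjusted p up to 0.114). The values come from the same 8 libraries and, for Fgf21, from few counts, and they are descriptions without a test.

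The receptors of these hormones were measured in the same livers. Of 17 receptor genes, 11 were tested, 1 was called higher and none lower, where 0.823% of all tested genes were called higher and 0.218% lower. The median log2 fold change was 0.02 (-0.0033 over all tested genes). The called gene was Fgfr1, the receptor that FGF21 uses with β-Klotho in fat and brain. It was at 3.31 to 4.25 CPM in WT and at 6.37 to 10.5 CPM in N-LKO livers (log2 fold change 1.16, SE 0.166, adjusted p = 0.00844). All N-LKO mice lay above all WT mice, and the call was kept in all 8 fits that left out 1 mouse. Gm16159 overlaps it on the other strand. Summed fibroblast and cholangiocyte markers and the macrophage genes Gpnmb and Mmp12 were higher in the same livers, as given above. Of the stellate cell markers, Colec10 and Ecm1 were called lower, while Des and Reln lay above 0. The part of these cell types in the Fgfr1 result was not tested. Klb, encoding β-Klotho, was at 36.7 ± 4.93 and 39.0 ± 4.75 CPM (log2 fold change 0.09, SE 0.115, adjusted p = 0.813). Fgfr4, the main FGF receptor of hepatocytes, was at 12.7 and 12.8 CPM (log2 fold change 0.02, SE 0.117, adjusted p = 0.976). The GDF15 receptor gene Gfral was not analysed here.

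The genes known to control Fgf21 transcription did not pass the edgeR test with all mice. Of 20 listed regulators 19 were tested and 0 were called by edgeR or limma-voom, 4 had an unadjusted p under 0.05 (2 higher, 2 lower, and 12.8% of all tested genes had one), and DESeq2 called 2. Over all tested genes DESeq2 called 2.61%. Ppara had a log2 fold change of -0.07 (SE 0.18, adjusted p = 0.918) and Atf4 of 0.08 (SE 0.151, adjusted p = 0.873), and both turned sign when single mice were left out. Ddit3, encoding CHOP, had 0.27 (SE 0.216, adjusted p = 0.655). Creb3l3, the liver's ER-bound partner of PPARα at Fgf21, was at 206 ± 5.59 and 186 ± 10.5 CPM (log2 fold change -0.15, SE 0.0688, adjusted p = 0.403). Nr1d1, encoding the clock repressor REV-ERBα, had the lowest p of the list: 27.4 ± 6.36 and 12.2 ± 5.05 CPM, a log2 fold change of -1.18 (SE 0.257, adjusted p = 0.0632). DESeq2 gave it an adjusted p of 0.000533 and the unfiltered edgeR fit 0.0463. Every N-LKO liver lay below every WT liver in Nr1d1, though 19.4 CPM in N-LKO replicate 4 came close to 19.8 CPM in WT replicate 4, and Thra overlaps the gene on the other strand. Mlxipl, encoding the sugar sensor ChREBP and named after its values were seen, had -0.47 (SE 0.105, adjusted p = 0.0699). Its groups did not overlap (55.9 to 78.6 CPM in WT and 44.6 to 51.0 CPM in N-LKO livers), and it was called without WT replicate 1 (-0.55, adjusted p = 0.0334).

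Target genes of the same regulators were not called by edgeR with all mice either. Over all tested genes 12.8% had an unadjusted p under 0.05 in edgeR, and DESeq2 called 2.61%. Of 30 PPARα target genes 0 were called by edgeR, 8 had an unadjusted p under 0.05 (2 higher, 6 lower) and DESeq2 called 2. Their median log2 fold change was -0.15, with 22 of 30 below 0, whereas 49.3% of all tested genes were above 0. The lowest p values belonged to 2 genes that were higher, Cyp4a31 (log2 fold change 0.63, SE 0.137, adjusted p = 0.0627), a fatty acid ω-hydroxylase whose gene family can share reads, and Ucp2 (0.58, SE 0.15, adjusted p = 0.118), a mitochondrial carrier. Cyp4a32, of the same family, lay in the other direction without overlap of the groups (-0.54, SE 0.171, adjusted p = 0.198). Cyp4a10 had 0.05 and Cyp4a14 -0.15. Of 24 tested ATF4 and integrated stress response genes 0 were called by edgeR, 6 had an unadjusted p under 0.05 (4 higher, 2 lower) and DESeq2 called 1, with a median of 0.08. Atf3 had a log2 fold change of 1.71 (SE 0.516, adjusted p = 0.179) and Atf5 of -0.27 (SE 0.0851, adjusted p = 0.194). Of 15 ChREBP targets 0 were called by edgeR, 5 had an unadjusted p under 0.05 (1 higher, 4 lower) and DESeq2 called 2. Their median was -0.12, with 11 of 15 below 0. The lowest p values were those of Fasn (0.40, adjusted p = 0.122), the fatty acid synthase gene, and Gys2 (-0.52, SE 0.142, adjusted p = 0.142), the liver glycogen synthase gene.

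Among 15 tested hepatic genes that respond to FGF21 or fasting, 0 were called by edgeR, 2 had an unadjusted p under 0.05 (both lower) and DESeq2 called 1, with a median of -0.09. Over all tested genes 12.8% had such an unadjusted p, and DESeq2 called 2.61%. Dusp6, the ERK phosphatase that FGF signals induce, was at 26.2 ± 7.84 and 14.1 ± 2.26 CPM (log2 fold change -0.89, SE 0.202, adjusted p = 0.0763). It was called without WT replicate 1 (-1.05, adjusted p = 0.0184) and by DESeq2 (adjusted p = 0.0023). Egr1, an immediate-early target of ERK, had -0.66 (SE 0.273, adjusted p = 0.344). Of the other tested Dusp, Spry and Etv genes in the list, Spry4 had -0.12, Spry1 0.02, Etv5 0.15, Spry2 0.31 and Dusp4 0.38, and none was called. Over all 15 genes, 9 lay below 0 and 6 above it.

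**Figure D5:**
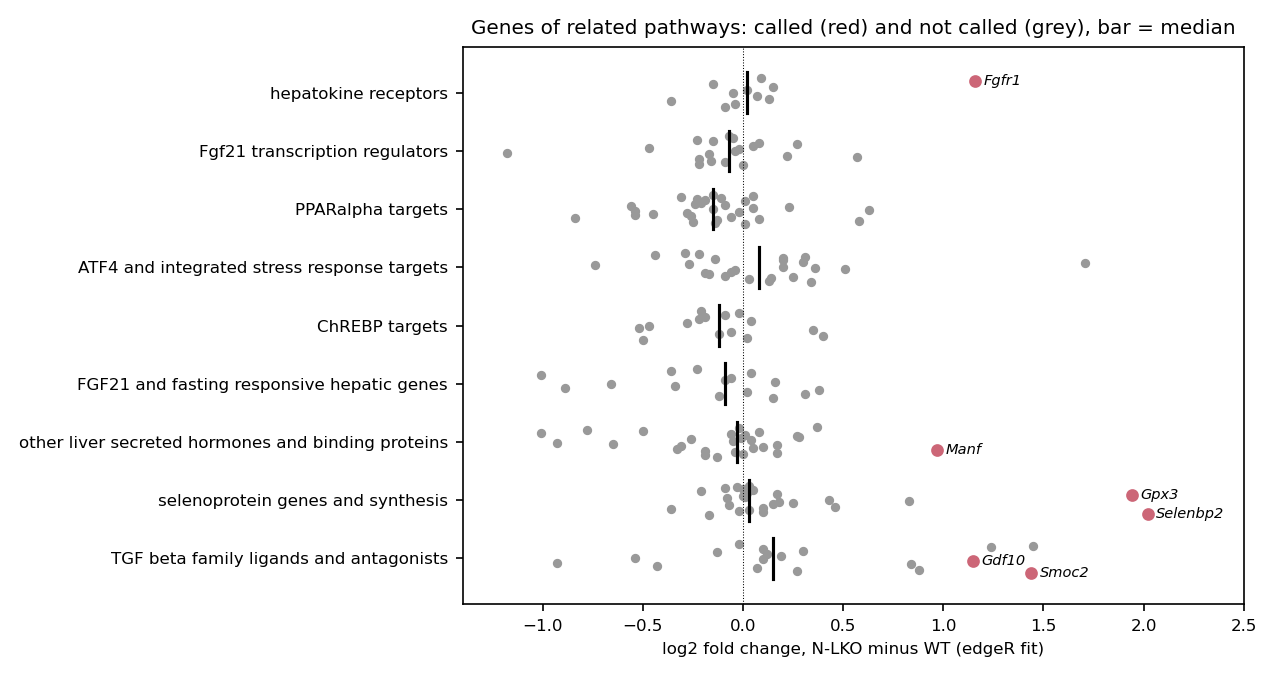
Each point is the log2 fold change (N-LKO minus WT) of 1 tested gene in 9 lists of receptors, regulators, targets and related families, red where edgeR's adjusted p was under 0.05, and vertical bars mark list medians. The called genes are Fgfr1, Manf, Gpx3, Selenbp2, Gdf10 and Smoc2, all to the right of 0.

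Counts of called genes among the relatives of the hepatokines are given beside the share of all tested genes that edgeR called, 1.04%. These lists were chosen with earlier results known, so nothing is read from the counts. Of 28 other liver hormones and binding proteins tested, 1 was called: Manf, an ER stress-inducible secreted factor, at 36.4 ± 6.18 CPM in WT and 71.3 ± 17.7 CPM in N-LKO livers (log2 fold change 0.97, SE 0.177, adjusted p = 0.0278). With 1 mouse left out, this call was kept without WT replicate 4 and without N-LKO replicate 2 and lost in the other 6 fits (adjusted p up to 0.0877), and Manf overlaps Rbm15b on the same strand. Igf1 (0.08, SE 0.148, adjusted p = 0.872) and Angptl4 (-0.02, SE 0.153, adjusted p = 0.973) were not called.

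Selenop itself differed little, while of 26 genes for selenoproteins and their synthesis 2 were called higher, where 0.823% of all tested genes were. Gpx3, the glutathione peroxidase of plasma and a selenoprotein, was at 5.45, 5.69, 5.52 and 3.70 CPM in WT and at 16.6 to 21.1 CPM in N-LKO livers (log2 fold change 1.94, SE 0.143, adjusted p = 0.000194). The N-LKO livers were all well above the WT livers, and the log2 fold change lay between 1.81 and 2.01 when single mice were left out. Selenbp2, a selenium-binding protein that is not a selenoprotein, went from 12.1 ± 4.71 to 49.3 ± 21.9 CPM (2.02, SE 0.376, adjusted p = 0.0309), a call kept without N-LKO replicate 2 and lost in the other 7 of those fits (adjusted p up to 0.0974) and with limma-voom (adjusted p = 0.0626). Selenbp1 and Selenbp2 are close paralogs that can share reads, and Selenbp1 had 0.10 (SE 0.123, adjusted p = 0.806). Sephs2, which makes the selenium donor, had 0.03 (SE 0.113, adjusted p = 0.951).

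Of 18 tested TGF-β family ligands and antagonists 2 were called higher and none lower, with a median log2 fold change of 0.15. Over all tested genes 0.823% were called higher and 0.218% lower. Smoc2, the closest relative of Smoc1, rose from 3.46 ± 0.281 to 9.41 ± 2.76 CPM (log2 fold change 1.44, SE 0.20, adjusted p = 0.0076) and was called in all 8 fits that left out 1 mouse. 4930474M22Rik overlaps it on the other strand. Smoc1 lay in the other direction at -0.16. Gdf10, also called BMP3B, rose from 5.37 ± 0.70 to 11.9 ± 2.90 CPM (1.15, SE 0.184, adjusted p = 0.0153), a call lost without WT replicate 4 (adjusted p = 0.053). Both are genes of stromal cells in many tissues. The summed fibroblast markers were higher in the same livers. Of the stellate cell markers, Colec10 and Ecm1 were called lower, while Des and Reln lay above 0. The part of these cells in the Smoc2 and Gdf10 results was not tested. The other activin subunit genes Inhba (-0.65, SE 0.16, adjusted p = 0.105), Inhbb (0.17, SE 0.323, adjusted p = 0.887) and Inhbc (-0.31, SE 0.229, adjusted p = 0.628) did not pass the test.

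Of 5 tested genes of the fetuin cluster and cystatin relatives, none was called by edgeR, limma-voom or DESeq2 and 1 had an unadjusted p under 0.05. Cst3, encoding cystatin C, had a log2 fold change of 0.18, and Kng2, a kininogen gene next to the fetuin genes, of -0.15 (adjusted p = 0.619). Of 6 fibrinogen relatives none was called by these 3 tools and 0 had an unadjusted p under 0.05, with Fcna at -0.27 and Angptl2 at 0.42.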

How the data were processed

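Liver RNA of 4 WT and 4 N-LKO mice was sequenced, with 1 library from each. Deposited by the authors were expected counts (estimated gene counts that may have decimals), and 52.3% of genes had decimals in at least 1 mouse. The methods name TopHat2 and cuffdiff, whereas the submitters' processing notes name STAR, Partek and mm9. The table's coordinates are those of GRCm38: 96.8% of its genes have the start and end of GENCODE M21, from which printed coordinates and exon lengths were taken. Labels and methods name a small RNA library kit, after removal of rRNA in the methods, and neither gives the strand setting of the counting.

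Counts were rounded to whole numbers, filtered by filterByExpr (minimum count 10, minimum total 15, which left 14214 genes), scaled by TMM and compared between genotypes by the quasi-likelihood test of edgeR 4.0.16 (R 4.3.3). A Benjamini-Hochberg adjusted p under 0.05 made a call. Standard errors are log2 fold changes over the root of F. CPM are counts per 1000000 after TMM scaling. Log2 CPM used a prior count of 2, which shrinks differences of genes with few counts. Promoters came from RefSeq (GRCm38.p6). The scripts were tested on simulated data. No pair of libraries agreed within sampling noise.

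The members and gene lists, cell type markers included, were chosen with earlier results of these data known. Named were the members, Nus1 and Dhdds, called receptors and regulators with 9 fixed ones (Gfral is not analysed here), up to 5 called genes of each other list or its 2 with the lowest p, and the 5 genes most like Fgf21. Mlxipl, the acute phase genes, and Igf1, Angptl4, Sephs2, Selenbp1, Inhba, Inhbb and Inhbc were named after values had been seen. So were Cd9, Reln, Des, Dusp4, Spry1, Spry2, Spry4, Etv5, Cyp4a10, Cyp4a14 and Cyp4a32. Dhdds, the partner of NgBR, had a log2 fold change of 0.06 (SE 0.0792, adjusted p = 0.806). Gdf15 was too low for the likeness search. Nothing in the labels says that replicate numbers mark a shared litter or day. Samples are separate mice by their titles.

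Other settings tried were DESeq2 1.42.0, limma-voom (limma 3.58.1), a replicate block, RLE or unscaled libraries, a stricter filter (10 counts in all mice) or none, the fit short of 1 mouse in turn, prior count 0.5, and the longest transcript as gene length. Depth was 14688380 to 18585376 counts, which limits what can be said of genes near 10 counts.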

Additional observations from a re-analysis of the deposited data

Results flagged for a closer look

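In 3 of 22 groups of 4 mice examined, 1 mouse lay far from the other 3 by Dixon's criterion, where chance gives about 1.1 such groups. Fgl1 in WT replicate 1 was at 10.47 on the log2 CPM scale, against 8.23 to 8.33 in the other WT mice. Tsku in the same mouse was at 2.25, against 4.31 to 4.63 in the others. Enho in N-LKO replicate 2 was at 1.40, against 2.48 to 2.67 in the other N-LKO mice.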

How the results depend on the processing

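The number of called genes was 148, and 98 with at least 10 counts in every mouse, 371 with DESeq2, 131 with the replicate block and 71 to 173 with 1 mouse left out (leaving out WT replicate 4 gave 71, N-LKO replicate 3 gave 76, WT replicate 2 gave 83 and WT replicate 3 gave 91). The replicate numbers did not pair the mice (correlations of same-numbered residuals from -0.085 to 0.062), and with the replicate block the count of called hepatokines went from 1 to 0. It was 0 to 1 with 1 mouse left out. With 1 mouse left out, the log2 fold change of Fgl1 ranged from -0.44 to 0.72 and the log2 ratio of Gdf15 from -0.82 to -0.10. DESeq2 called 2.61% of all tested genes. Counts of called genes under DESeq2 were 2 for the Fgf21 regulators (1 with no filter), 2 for PPARα targets, 1 for ATF4 targets, 2 for ChREBP targets, 1 for genes responsive to FGF21 or fasting, 3 for other liver hormones and 4 for the TGF-β family. Under limma-voom 1 selenoprotein-related gene was called. With 1 mouse left out these counts ranged from 0 to 1 for regulators, PPARα targets and genes responsive to FGF21 or fasting, from 0 to 2 for ChREBP targets and other liver hormones, from 1 to 2 for selenoprotein genes and from 1 to 3 for the TGF-β family. With the longest transcript as gene length, WT levels were 4106 CPM per kb for Ahsg, 3620 for Selenop and 203 for Fetub. Library totals alone moved the median log2 fold change of all genes to -0.037 and that of Fgfr4 to -0.022. With 1 mouse left out, values ranged from -0.069 to 0.081 for Fgfr4, -0.21 to 0.048 for Ppara, -0.045 to 0.20 for Atf4, -0.21 to 0.072 for Zfp2 and -0.64 to 0.14 for Rps4l. Of the log2 fold changes of named genes outside the hepatokines over all settings, 648 kept direction and side of the threshold, 50 lost the call, 15 gained it and 16 turned sign. The cause of these changes was not tested. Gdf15, at 3 to 12 counts a library across both genotypes, allowed no statement on a difference.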
